A study of Homo sapiens with 40 samples.

Results

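The RNA of GDF15 and of 8 genes of the integrated stress response, ATF4, DDIT3, TRIB3, CHAC1, ASNS, SESN2, ATF5 and PPP1R15A, was followed in HER2-positive breast cancer cells stimulated with a growth factor. Members were the rows of the count table whose gene name equals 1 of these 9 symbols, and all 9 were found among 44584 rows. GDF15 was chosen by a measured value, its 24 h log2 fold change in BT474, which was the largest rise in earlier results of these data, so its 24 h values in BT474 are described without a test. The 8 other genes were added from knowledge of the pathway, to ask whether they follow GDF15. The cells were BT474, a HER2-overexpressing breast ductal carcinoma line sensitive to trastuzumab, and BT474R, a single clone of that line kept in trastuzumab until it was resistant. Both lines were starved of serum, which gave the T0 group. They were then given EGF (epidermal growth factor), HRG (heregulin) or water as the vehicle in freshly made starvation medium, and collected at 1 h, 12 h or 24 h. This gave 20 groups of 2 libraries, 10 groups per line and 40 libraries in all. The treated groups are named by ligand and line, for example EGF-BT474R. The vehicle groups share starvation, fresh medium and water with the treated groups, while T0 cells received no fresh medium. By the study's methods EGF was given at a higher mass concentration than HRG, so ligand and dose cannot be told apart between them.

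GDF15 encodes a secreted protein of the TGF-beta superfamily, made by many cell types under stress and known to signal through GFRAL and its co-receptor RET. In the integrated stress response, kinases that sense amino acid shortage, unfolded protein, heme loss or viral RNA phosphorylate the translation factor eIF2. General translation then falls while ATF4 is translated, and ATF4 with its partners switches on genes for amino acid supply, redox balance, feedback and cell death. Some of these genes, GDF15 and SESN2 among them, are also known targets of p53, and PPP1R15A, DDIT3 and ATF3 also respond quickly to other signals.

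Between 16794594 and 33387936 reads per library were counted on genes, and the normalization factors ran from 0.935 to 1.07. Levels are given as CPM, a gene's count scaled to a fixed library total with these factors. All 7 luminal epithelial markers examined, ERBB2 (the gene of HER2) included, were above the floor of 3 counts in all 40 libraries, and the markers of other cell types were mixed. The leukocyte markers PTPRC and CD3E and the fibroblast marker PDGFRB were above it in 0 libraries, and KRT14, ACTA2 and PECAM1 in 3 each. The leukocyte marker CD68, the basal marker TP63, the fibroblast marker COL1A1 and the endothelial marker VWF were above it in all 40, with medians of 2.03, 2.66, 138 and 13.7 CPM, COL3A1 in 30 and the basal marker KRT5 in 29. Replicates are known only by their numbers, so the p-values measure the spread between these libraries, which may be technical. Replicates differed more than counting noise alone would give in every group, and most in HRG-BT474R at 24 h, with a median chi-square per gene of 2.56 against 0.455 for counting noise. In the 24 h groups of BT474R, replicate 1 lay below replicate 2 for GDF15 under vehicle, HRG and EGF alike. In RNA from whole cultures, fewer cells that make a transcript and less of it per cell cannot be told apart.

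The sequence upstream of the members was searched for the kinds of sites through which such genes are known to be read. The 250 bases before each RefSeq start site (GRCh38.p14, all 9 members matched) were searched on both strands for the composite C/EBP-ATF element TGATGNAA (the CARE, which ATF4 dimers are known to bind), the cAMP response element TGACGTCA, the AP-1 site TGANTCA, the EGR site GCGTGGGCG and the CCAAT box. A CARE was found in 2 of 9 members, CHAC1 and ASNS, against 3.89% of 27305 genes. The cAMP response element was in 1 member, PPP1R15A (2.03% of genes), the AP-1 letters were in 2, DDIT3 and ATF5 (8.06%), and the CCAAT box was in 4 (37.0%). The EGR letters were in 0 of 9 members (0.886%). ATF4 and TRIB3 had no match to any of these motifs. In the lines below, each 30-base stretch is written 5′ to 3′ on the strand of its gene, with the matched letters in capitals.
CHAC1, CARE, chr15:40953251-40953280, plus strand: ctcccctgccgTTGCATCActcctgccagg
ASNS, CARE, chr7:97872458-97872487, minus strand: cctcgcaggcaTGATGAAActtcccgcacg
PPP1R15A, cAMP response element, chr19:48872352-48872381, plus strand: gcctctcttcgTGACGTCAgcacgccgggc
DDIT3, AP-1, chr12:57520735-57520764, minus strand: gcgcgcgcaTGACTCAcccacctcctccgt
ATF5, AP-1, chr19:49928707-49928736, plus strand: ggagagtgctgTGACTCAtgctggactcta
GDF15, CCAAT box, chr19:18386043-18386072, plus strand: ccagctgtggtcATTGGagtgtttactctg
Counted back from the start site, the matched letters lie at -209 to -202 in CHAC1, -68 to -61 in ASNS, -58 to -51 in PPP1R15A and -103 to -99 in GDF15. Annotated exons, mostly of longer transcripts of the same genes, cover all or part of these 6 stretches. A match describes letters only, and binding was not measured here.

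GDF15 (chr19:18374731-18389176, plus strand) had its highest levels in BT474 at 1 h and its lowest under vehicle at 24 h. At T0 its 2 BT474 libraries had 0.464 and 0.492 CPM, on 12 and 10 counts. After 1 h of vehicle alone they had 13.8 and 14.2 CPM. The vehicle libraries lay far above T0, with no overlap. Against T0 the vehicle effect was 4.87 ± 0.21 on the log2 scale (log2 fold change ± SE, here and below; edgeR's quasi-likelihood test, Benjamini-Hochberg adjusted p = 7.7e-20).

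With EGF for 1 h GDF15 had 56.5 and 57.3 CPM, and with HRG 59.7 and 54.4 CPM. All 4 ligand libraries lay above both vehicle libraries, and the EGF and HRG ranges overlapped. GDF15 rose by 2.01 ± 0.09 with EGF (adjusted p = 8.9e-20) and by 2.02 ± 0.09 with HRG (adjusted p = 8.1e-20). HRG against EGF gave 0.01 ± 0.08, a difference smaller than its error.

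At 12 h GDF15 in the BT474 vehicle libraries was back at 0.585 and 0.483 CPM, near T0. EGF gave 2.71 and 3.27 CPM and HRG 2.85 and 2.39 CPM. Every ligand library lay above every vehicle library. The rise was 2.45 ± 0.28 with EGF (adjusted p = 1.8e-08) and 2.25 ± 0.28 with HRG (adjusted p = 4.4e-08).

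At 24 h in BT474 the vehicle libraries had GDF15 at 0.238 and 0.154 CPM, from 5 and 4 counts, EGF 6.16 and 9.03 CPM, and HRG 4.81 and 5.93 CPM. The fitted differences were 5.25 for EGF and 4.74 for HRG. These values chose the gene and are not tested. The 24 h ligand levels lay below those of 1 h, and the vehicle level at 24 h was the lowest of the 20 groups.

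BT474R had more GDF15 than BT474 in each of the 10 matched groups. At T0 its libraries had 12.1 and 10.53 CPM, above the BT474 libraries by 4.58 ± 0.67 (adjusted p = 3.1e-07, fit of both lines). For comparison, 46.9% of 24641 genes differed between the lines at T0. After 1 h of vehicle GDF15 reached 87.3 and 95.4 CPM, a rise of 2.99 ± 0.36 over T0 (adjusted p = 2e-05).

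EGF for 1 h gave GDF15 levels of 199.99 and 200.2 CPM in BT474R, and HRG 143.9 and 144.1 CPM. All 4 ligand libraries lay above the vehicle libraries and the EGF libraries lay above the HRG libraries. Neither difference passed the test in the fit of all 20 BT474R libraries, with 1.13 ± 0.28 for EGF (adjusted p = 0.10) and 0.67 ± 0.28 for HRG (adjusted p = 1). In a fit without the 24 h libraries of BT474R, chosen after seeing the data, the adjusted p was 2.8e-08 for EGF and 0.00066 for HRG at nearly the same fold changes.

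At 12 h the BT474R vehicle libraries had GDF15 at 8.4 and 14.1 CPM, HRG 32.5 and 51.1 CPM, and EGF 146 and 123 CPM. The 3 groups did not overlap. GDF15 rose by 3.54 ± 0.34 with EGF (adjusted p = 1.7e-07) and by 1.85 ± 0.35 with HRG (adjusted p = 0.0026). HRG lay below EGF by 1.68 ± 0.29 (log2 fold change -1.68, adjusted p = 0.0025). Without vehicle replicate 1 the HRG effect was 1.58 and without HRG replicate 2 it was 1.51, neither past the threshold. HRG against EGF was -1.39 without HRG replicate 1 and -1.55 without EGF replicate 1, also short of the threshold.

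At 24 h in BT474R the vehicle libraries had GDF15 at 8.07 and 22.3 CPM, HRG 19.7 and 52.0 CPM, and EGF 119 and 144 CPM. The HRG and vehicle ranges overlapped, though HRG lay above vehicle within each replicate number, while EGF lay above both. GDF15 rose by 3.15 ± 0.33 with EGF (adjusted p = 4.5e-07), and the effect was 4.01 without vehicle replicate 2. HRG gave 1.28 ± 0.35 (adjusted p = 0.055), and 2.15 without vehicle replicate 2 or 1.80 without HRG replicate 1. Over all genes, the replicate differences of these vehicle and HRG groups correlated at 0.422. The labels do not say whether the numbers pair the samples. In fits with a replicate block the HRG call was gained, as given in the last section. HRG against EGF was -1.87 ± 0.30 (adjusted p = 0.00034).

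**Figure D1:**
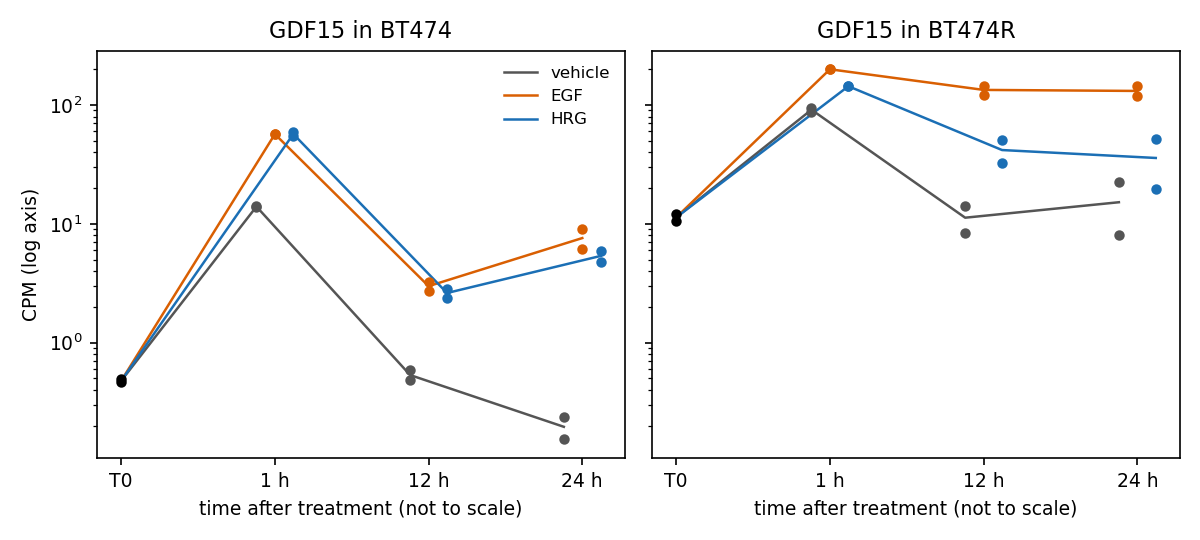
GDF15 in CPM (log axis) in each of the 40 libraries, by line, treatment and time. Points are libraries and lines join the means of 2 libraries. The EGF and HRG libraries of BT474 overlap at 1 h, and those of BT474R do not overlap at 1 h, 12 h or 24 h.

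The order of GDF15 levels over the 20 groups began with EGF-BT474R at 1 h (mean 200.1 CPM), followed by HRG-BT474R at 1 h and EGF-BT474R at 12 h and 24 h (131 to 144 CPM), which overlapped their neighbours. Vehicle at 1 h in BT474R (91.3 CPM) stood above both ligands at 1 h in BT474 (57.0 and 56.9 CPM). The lowest 3 groups were vehicle at 12 h, T0 and vehicle at 24 h in BT474, in that order. Of 19 neighbouring pairs in this order, 10 overlapped between their libraries.

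The ligand effects on GDF15 were compared across BT474 and BT474R by fitting the 40 libraries together. The 1 h effect in BT474R minus that in BT474 was -0.90 ± 0.35 for EGF (adjusted p = 0.69) and -1.36 ± 0.35 for HRG (adjusted p = 0.072). At 12 h the difference was 1.07 ± 1.06 for EGF and -0.41 ± 0.94 for HRG. None of these passed the threshold. In this joint fit the errors at 12 h are too wide to tell the lines apart. The fits per line, given above, had smaller errors at 12 h.

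The genes whose pattern was most like that of GDF15 were ranked by Pearson's r of the group means on the log2 CPM scale, among genes with a mean of at least 1 CPM. This is a description over 10 groups of a line, which share the same libraries, and has no p. The BT474 groups include those of 24 h, whose GDF15 values chose the gene. In BT474 the 5 most alike were ATG101 (r = 0.978), CLTA (0.978), KLF2 (0.972), TNFRSF10A (0.968) and NOCT (0.968). The list depended on the measure: by Spearman's rho the 5 were ATF3 (0.976), a stress-induced transcription factor of the ATF family, PER2 (0.976), SLC20A1, CLTA and IDI2-AS1 (0.964 each). ATG101, an autophagy factor, moved little, from 35.3 to 42.3 CPM. KLF2, an immediate-response transcription factor, moved from 12.3 CPM at T0 to 41.0 with vehicle, 92.3 with EGF and 91.8 with HRG at 1 h, and stood at 25.7 with EGF and 11.2 with vehicle at 24 h. In BT474R the 5 were RHPN2 (0.976), IFNGR1 (0.976), MAFF (0.971), TNFRSF10B (0.968) and SWAP70 (0.965), of which MAFF and TNFRSF10B were also among the 5 by rho. MAFF, a small Maf transcription factor, stood at 8.84 CPM at T0, 48.7 with EGF at 1 h and 36.6 with EGF at 24 h. Over all 20 groups the 5 were ITPRIP (0.963), MAFF (0.960), BDKRB2 (0.951), TP53INP2 (0.932) and DUSP4 (0.931). None of the 8 stress response genes was among the 5 by either measure.

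Over 12 comparisons of a ligand with its vehicle, 33 of 96 tests of the 8 stress response genes passed, 29 higher and 4 lower. With EGF in BT474, 3 of 8 were higher at 1 h, where 2.19% of 25146 genes were called (1.65% higher, 0.533% lower). At 12 h 2 were higher, against 16% of genes called (9.04% higher, 6.99% lower), and at 24 h 3 were higher and 1 lower, against 16.4% (9.71% higher, 6.65% lower). With HRG in BT474, 3 were higher and 1 lower at 1 h, against 2.77% (2.16% higher, 0.604% lower). At 12 h 3 were higher, against 25.8% (13.3% higher, 12.5% lower), and at 24 h 4 were higher and 2 lower, against 24.1% (12.5% higher, 11.6% lower).

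With EGF in BT474R, 1 of 8 was higher at 1 h, where 0.457% of 24287 genes were called (0.416% higher, 0.0412% lower). At 12 h 3 were higher, against 12% (6.85% higher, 5.13% lower), and at 24 h 5 were higher, against 17.3% (9.95% higher, 7.37% lower), with none lower at any time. With HRG, edgeR's test passed 0 at 1 h, with 1 at an unadjusted p under 0.05 and 0.169% of genes called, all higher. At 12 h 1 was higher, against 4.12% (2.38% higher, 1.73% lower), and at 24 h 1 was higher, against 2.78% (1.89% higher, 0.889% lower).

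The median change over the 8 genes stayed small. It was highest for EGF-BT474R at 24 h, at 0.41, and 0.26 at 12 h, against -0.01 for the median of all genes in both. In BT474 it lay between 0.03 and 0.16 in the 6 comparisons. The count without EGF replicate 1 was 2 for EGF-BT474 at 24 h, the count without HRG replicate 1 was 2 for HRG-BT474 at 24 h, and the count without EGF replicate 1 was 1 for EGF-BT474R at 12 h. For EGF-BT474R at 24 h it was 3 without vehicle replicate 2 or EGF replicate 1.

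**Figure D2:**
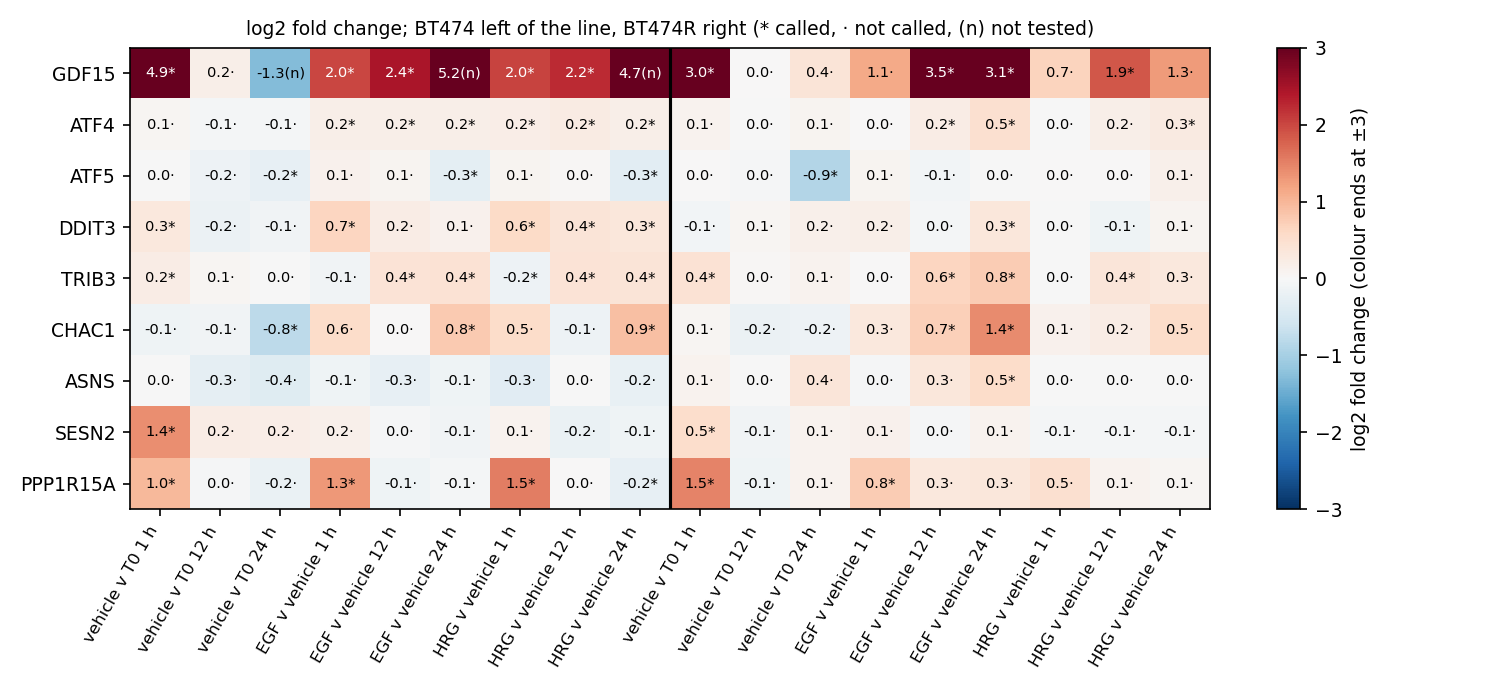
Heat map of the log2 fold change of the 9 members (rows) for vehicle against T0 and each ligand against its vehicle (columns), with BT474 left of the line and BT474R right, colour ending at 3 in either direction. An asterisk marks an adjusted p under 0.05, a dot a miss and (n) the GDF15 values in BT474 that were not tested. The GDF15 row holds the deepest colours.

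ATF4, the central transcription factor of the response, is known to be controlled mostly in translation, and its RNA moved little. In BT474 it had 304 and 302 CPM under vehicle at 1 h, 348 and 341 with EGF, and 346 and 360 with HRG. The ligand libraries lay above the vehicle libraries here and at 12 h and 24 h. ATF4 rose in all 6 BT474 comparisons, by 0.17 to 0.23, and the EGF effect at 1 h (0.17 ± 0.03, adjusted p = 0.0016) was no longer past the threshold without vehicle replicate 2 (0.17). In BT474R at 24 h ATF4 had 305 and 357 CPM under vehicle, 456 and 469 with EGF, and 367 and 430 with HRG. EGF lay above both other groups, by 0.48 ± 0.07 over vehicle (adjusted p = 2.0e-05). The HRG effect of 0.27 ± 0.07 (adjusted p = 0.031) was 0.16 without vehicle replicate 1 and 0.15 without HRG replicate 2, and neither passed. At 12 h EGF raised ATF4 by 0.22 ± 0.07 (adjusted p = 0.034), a call that did not hold when any of the 4 libraries was left out (0.19 to 0.26).

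DDIT3 encodes CHOP, a transcription factor known for its role in cell death under lasting stress. Exons of MBD6 lie in the stretch before its start, and without a stated strand setting some reads of both genes may not be told apart. In BT474 at 1 h it had 22.5 and 23.3 CPM under vehicle, 38.2 and 34.8 with EGF, and 34.2 and 35.1 with HRG. Both ligand groups lay above vehicle and overlapped each other. It rose by 0.66 ± 0.08 with EGF (adjusted p = 6.1e-08) and 0.58 ± 0.08 with HRG (adjusted p = 9.9e-07). HRG still gave a rise of 0.39 ± 0.08 at 12 h (adjusted p = 0.00030) and 0.35 ± 0.08 at 24 h (adjusted p = 0.0015, 0.25 and short of the threshold without HRG replicate 1). In BT474R at 1 h DDIT3 had 12.7 and 14.2 CPM under vehicle, 16.0 and 14.6 with EGF and 14.4 and 11.9 with HRG, and neither effect passed (0.18 ± 0.10 and -0.01 ± 0.10).

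The HRG effect on DDIT3 differed between the lines, by -0.61 ± 0.13 at 1 h (adjusted p = 0.011) and -0.53 ± 0.13 at 12 h (adjusted p = 0.015). At 1 h 0.544% of 24641 genes were called in this comparison of lines (0.495% lower), and at 12 h 4.07% (2.91% lower). The 1 h difference was -0.51 without BT474R vehicle replicate 2 and -0.48 without BT474R HRG replicate 2, both short of the threshold. The 12 h difference missed it without any of the 4 BT474R libraries or without replicate 2 of BT474 vehicle or HRG (-0.54 to -0.48). For EGF at 1 h the difference was -0.50 ± 0.13 (adjusted p = 0.17). In BT474R DDIT3 passed only with EGF at 24 h among the 6 ligand comparisons, at 20.8 and 18.9 CPM against 16.7 and 14.4, a rise of 0.34 ± 0.10 (adjusted p = 0.019) that was 0.24 without vehicle replicate 2 and 0.28 without EGF replicate 1, neither past the threshold.

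ATF5, a factor related to ATF4 known from the mitochondrial stress response, went the other way at 24 h in BT474. It had 68.6 and 78.1 CPM under vehicle, 52.1 and 68.0 with EGF and 51.8 and 67.7 with HRG. Each ligand group lay below vehicle, with wide spread between replicates. It fell by 0.30 ± 0.08 with EGF (adjusted p = 0.0070) and by 0.33 ± 0.08 with HRG (adjusted p = 0.0022). Without replicate 1 of the ligand the values were -0.12 and -0.14, without vehicle replicate 2 they were -0.21 and -0.22, all 4 short of the threshold, and without replicate 2 of the ligand they were -0.50 and -0.52. In BT474R the ATF5 ranges of vehicle and ligand overlapped at 24 h. Its vehicle libraries there had 32.4 and 43.0 CPM, against 69.7 and 68.7 at T0, a fall of 0.88 ± 0.15 (log2 fold change -0.88, adjusted p = 0.00037). Exons of NUP62 overlap ATF5, and the strand setting of the counting is not given in the sources used here, so reads of the 2 genes may not be told apart.

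TRIB3 is a pseudokinase that is induced by ATF4 and CHOP and is known to damp them. Its rises over vehicle passed only at 12 h and 24 h. Vehicle alone also raised it over T0 at 1 h, as given below. In BT474 at 12 h it had 153 and 161 CPM under vehicle, 208 and 210 with EGF, and 209 and 216 with HRG. Ligand and vehicle did not overlap at 12 h or 24 h, and the 4 rises lay between 0.40 and 0.44, with adjusted p between 3.6e-10 and 3.8e-09. At 1 h HRG gave a small fall of 0.15 ± 0.04 (log2 fold change -0.15, adjusted p = 0.046), which missed the threshold when any of the 4 libraries was left out (-0.15 to -0.12).

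In BT474R TRIB3 at 24 h had 96.3 and 125 CPM under vehicle, 183 and 194 with EGF, and 118 and 158 with HRG. EGF lay above both other groups, which overlapped. Mean TRIB3 with HRG was 141 CPM at 1 h and 139 CPM at 12 h, while vehicle went from 143 to 107 CPM. TRIB3 rose with EGF by 0.65 ± 0.10 at 12 h (adjusted p = 0.00010) and 0.77 ± 0.10 at 24 h (adjusted p = 8.8e-06). With HRG it rose by 0.36 ± 0.10 at 12 h (adjusted p = 0.048, lost when any of the 4 libraries was left out, 0.32 to 0.43) and gave 0.32 ± 0.10 at 24 h (adjusted p = 0.10).

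CHAC1 encodes an enzyme that degrades glutathione and is known as a late and strong target of ATF4 and CHOP. In BT474R at 24 h it had 3.36 and 3.51 CPM under vehicle, 5.09 and 4.92 with HRG, and 8.88 and 9.40 with EGF. The 3 groups did not overlap. CHAC1 rose by 1.41 ± 0.15 with EGF (adjusted p = 4.7e-07), the largest change among the 8 genes at 12 h and 24 h. At 12 h the EGF libraries had 6.19 and 5.33 CPM against 3.56 and 3.47, a rise of 0.71 ± 0.16 (adjusted p = 0.0035, 0.59 and short of the threshold without EGF replicate 1). HRG at 24 h gave 0.55 ± 0.16 (adjusted p = 0.079).

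In BT474 CHAC1 at 24 h had 1.10 and 1.42 CPM under vehicle, 2.39 and 1.98 with EGF, and 2.53 and 2.27 with HRG. Vehicle lay below both ligand groups and also below T0, which had 2.13 and 2.26 CPM. CHAC1 rose over vehicle by 0.78 ± 0.25 with EGF (adjusted p = 0.025) and 0.90 ± 0.24 with HRG (adjusted p = 0.0046), while vehicle against T0 gave a fall of 0.79 ± 0.25 (log2 fold change -0.79, adjusted p = 0.034). The ligand effects missed the threshold without vehicle replicate 1 (0.62 and 0.74) or without replicate 1 of the ligand (0.63 and 0.81). The fall from T0 missed it in all 4 omissions (-0.996 to -0.62). The ligand levels at 24 h in BT474 were thus close to T0. At 1 h CHAC1 was at 0.56 ± 0.21 with EGF and 0.55 ± 0.22 with HRG, neither past the threshold.

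ASNS, asparagine synthetase, is a standard target of ATF4 under amino acid shortage. In the annotation, exons of another gene lie in the stretch before its start, so its counts carry the same limit as those of ATF5. It had few reads here, between 1.47 and 2.89 CPM in BT474, and none of its 6 BT474 comparisons passed. In BT474R at 24 h it had 3.32 and 2.85 CPM under vehicle, 2.68 and 3.44 with HRG, and 4.66 and 4.48 with EGF. EGF lay above the overlapping other groups, and ASNS rose by 0.55 ± 0.17 (adjusted p = 0.025). Without vehicle replicate 2 the rise was 0.45, without EGF replicate 1 it was 0.53 and without EGF replicate 2 it was 0.57, and none of these passed. CHAC1, the other member with a CARE in the lines above, was called in that comparison too. So were TRIB3, ATF4 and DDIT3, in which no CARE was found. Whether the CARE played a part was not tested.

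SESN2 encodes a sestrin, which inhibits mTORC1 when leucine is short and is known as a target of both ATF4 and p53. In BT474 it had 13.9 and 13.4 CPM at T0, and 34.5 and 37.3 CPM after 1 h of vehicle, a rise of 1.40 ± 0.08 (adjusted p = 5.4e-16). EGF (42.2 and 38.5 CPM) and HRG (41.0 and 37.2 CPM) at 1 h gave 0.15 ± 0.07 and 0.11 ± 0.07 over vehicle, neither past the threshold. None of the 12 ligand effects on SESN2 passed. In BT474R it had 15.2 and 20.4 CPM at T0 and 26.1 and 26.2 after vehicle, a rise of 0.53 ± 0.10 (adjusted p = 0.0065). That call missed the threshold without T0 replicate 1 (0.35), vehicle replicate 1 (0.52) or vehicle replicate 2 (0.52). The vehicle effect was smaller in BT474R by 0.87 ± 0.14 (difference -0.87, adjusted p = 0.00037, where 0.487% of genes were called), and -0.63, short of the threshold, without BT474R T0 replicate 2. A copy row of SESN2, at 2.10 to 6.70 CPM in the group means, was left out. Adding its counts, an alternative chosen after seeing the data, changed none of the 4 SESN2 calls.

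PPP1R15A encodes GADD34, the phosphatase subunit that reverses eIF2 phosphorylation and so closes the response. It peaked at 1 h in both lines. In BT474 it had 19.98 and 19.8 CPM at T0, 38.6 and 38.7 under vehicle at 1 h, 100.1 and 93.5 with EGF, and 111 and 113 with HRG. The 4 groups did not overlap. Vehicle raised it by 0.96 ± 0.08 over T0 (adjusted p = 7.2e-12), and over vehicle it rose by 1.31 ± 0.07 with EGF (adjusted p = 2.2e-18) and 1.52 ± 0.07 with HRG (adjusted p = 1.6e-20). At 12 h its levels were back between 16.5 and 20.4 CPM. At 24 h HRG gave a small fall of 0.24 ± 0.09 (log2 fold change -0.24, adjusted p = 0.040), which was -0.06 without vehicle replicate 1 and -0.42 without vehicle replicate 2. It missed the threshold without either HRG library (-0.24 and -0.25) or without vehicle replicate 1.

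In BT474R PPP1R15A had 12.1 and 13.8 CPM at T0, 34.4 and 40.2 under vehicle at 1 h, 64.8 and 62.3 with EGF, and 57.6 and 45.4 with HRG. Here too all ligand libraries lay above vehicle, and EGF lay above HRG. Vehicle raised it by 1.497 ± 0.12 (adjusted p = 9.4e-08) and EGF by a further 0.76 ± 0.11 (adjusted p = 0.00021), while HRG gave 0.48 ± 0.11 (adjusted p = 0.093). The HRG effect at 1 h was smaller than in BT474 by 1.06 ± 0.13 (difference -1.06, adjusted p = 2.0e-06). For EGF the difference between the lines was -0.57 ± 0.13 (adjusted p = 0.085).

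**Figure D3:**
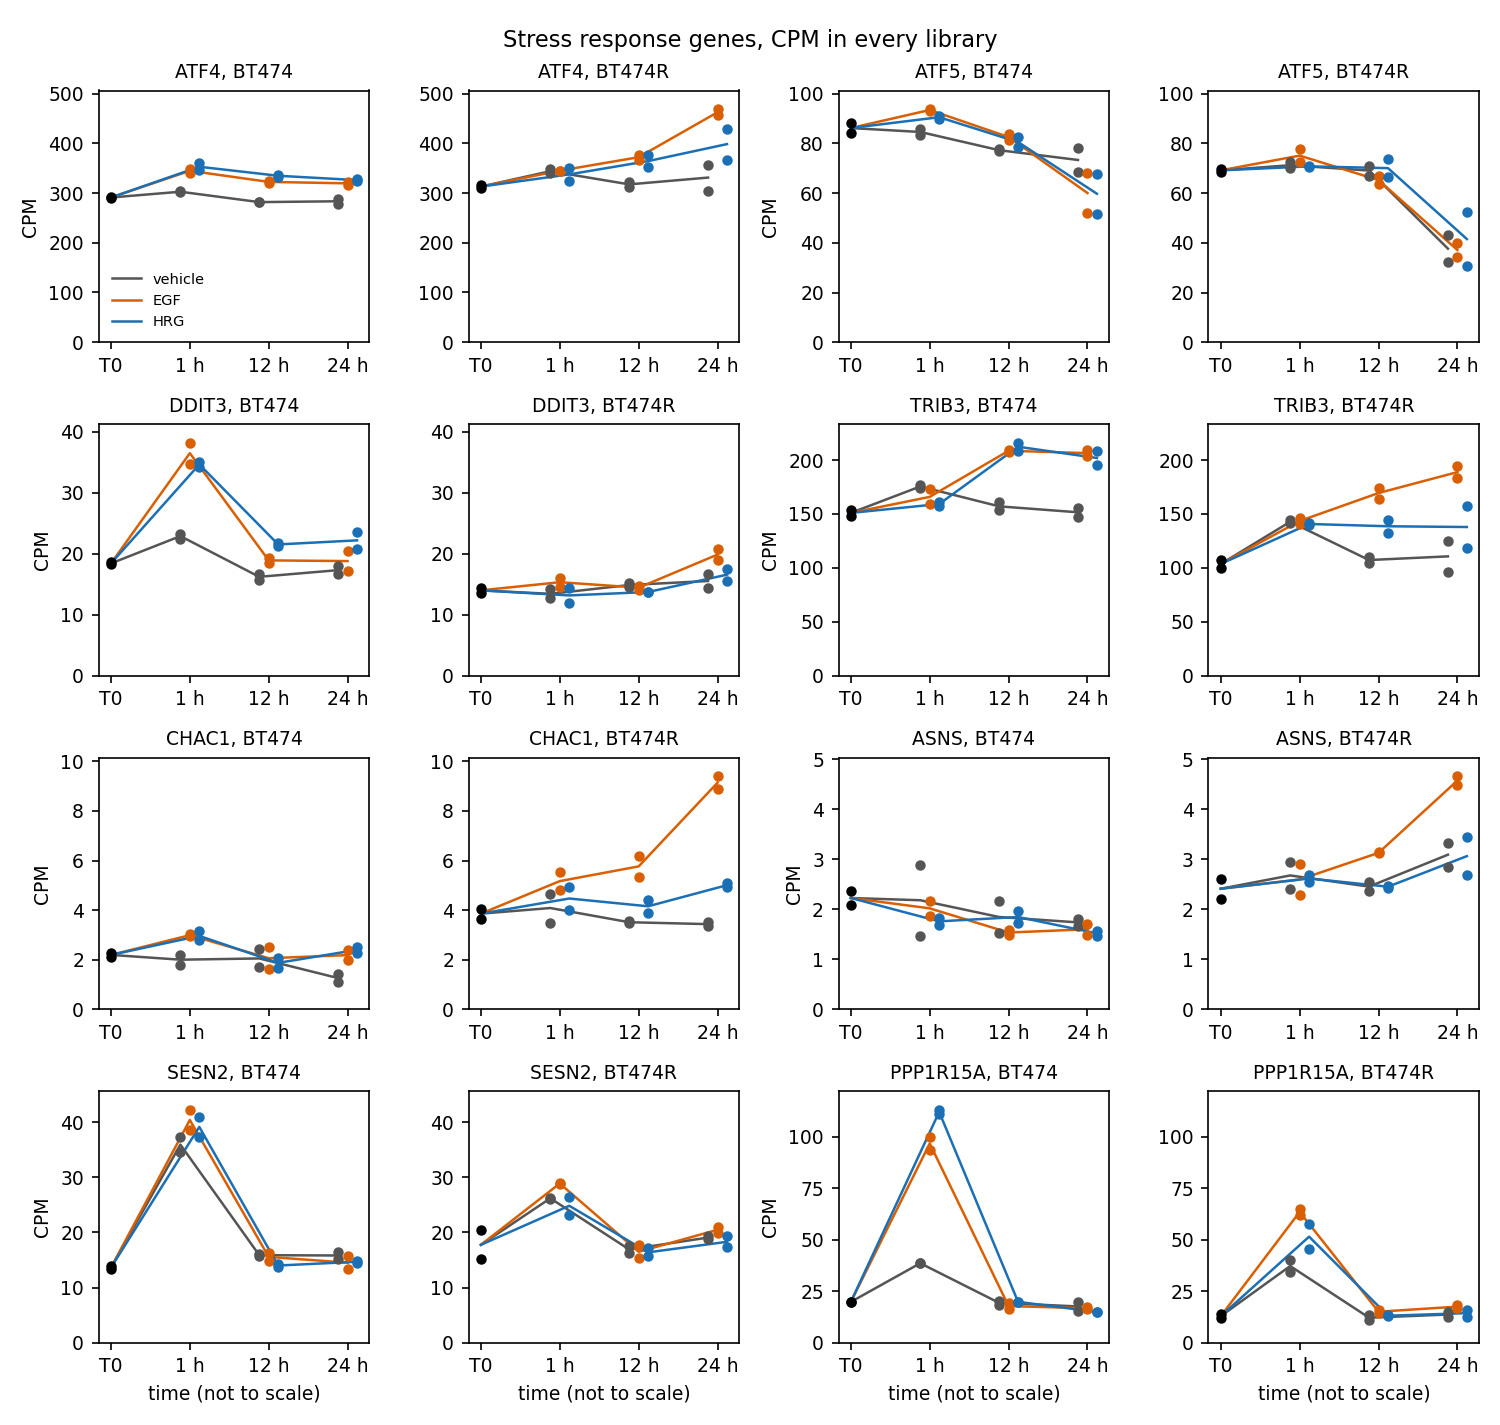
CPM of the 8 stress response genes (vertical axes, from 0) by time (not to scale) in each line, with vehicle in grey, EGF in orange and HRG in blue. Points are libraries and lines join group means. PPP1R15A and SESN2 stand highest at 1 h, and CHAC1 and ASNS in EGF-BT474R at 24 h. TRIB3 stands highest at 12 h and 24 h with either ligand in BT474 and with EGF in BT474R. Under vehicle TRIB3 stands highest at 1 h in both lines.

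The change from T0 to vehicle was itself large for some members. At 1 h 4 of the 8 stress response genes were higher in BT474 (6.61% of genes called, 3.67% higher and 2.94% lower), namely SESN2, PPP1R15A, DDIT3 and TRIB3. In BT474R 3 were higher (2.24%, 1.14% higher and 1.1% lower), namely PPP1R15A, SESN2 and TRIB3. The smaller ones were DDIT3 in BT474, at 0.32 ± 0.08 (adjusted p = 0.014), and TRIB3 at 0.22 ± 0.04 in BT474 (adjusted p = 0.00068) and 0.44 ± 0.10 in BT474R (adjusted p = 0.023). The DDIT3 call and the TRIB3 call of BT474R were lost when any of their 4 libraries was left out (0.29 to 0.34 and 0.39 to 0.48).

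At 12 h 0 of 8 passed in either line by edgeR's test (6.41% of genes in BT474, 3.15% higher and 3.26% lower, and 1.13% in BT474R, 0.354% higher and 0.774% lower), with 3 in BT474 and 0 in BT474R at an unadjusted p under 0.05. At 24 h CHAC1 and ATF5 were lower in BT474 (11.4%, 5.17% higher and 6.23% lower) and ATF5 was lower in BT474R (13.7%, 6.83% in each direction). The BT474 fall of ATF5, 0.24 ± 0.08 (log2 fold change -0.24, adjusted p = 0.040), was -0.15 without vehicle replicate 1, and missed the threshold there and without either T0 library (-0.20 and -0.27).

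HRG and EGF were compared directly, at the unequal concentrations named at the start. Among the 8 genes, edgeR's test passed 0 at each time in BT474, with 1, 1 and 2 at an unadjusted p under 0.05. Of all genes, 0.139% were called at 1 h (0.123% higher with HRG, 0.0159% lower), 2.17% at 12 h (1.22% and 0.95%) and 0.768% at 24 h (0.207% and 0.561%). In BT474R 0 passed at 1 h and 12 h (0.0494% of genes, all lower, and 1.42%, 0.276% higher and 1.14% lower, with 1 and 2 members at an unadjusted p under 0.05). At 24 h 2 passed (5.18%, 1.86% higher and 3.32% lower), both lower with HRG. These were CHAC1, at -0.86 ± 0.14 (adjusted p = 0.00044), and TRIB3, at -0.45 ± 0.10 (adjusted p = 0.0081). TRIB3 was -0.27 without HRG replicate 1 and -0.40 without EGF replicate 2, both short of the threshold, and -0.67 without HRG replicate 2. ASNS was at -0.57 ± 0.17 (adjusted p = 0.055) and ATF4 at -0.21 ± 0.07 (adjusted p = 0.082). GDF15 was lower with HRG in the same comparison, as given above.

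At T0 6 of the 8 genes differed between the lines, where 46.9% of genes did (25.1% higher in BT474R, 21.7% lower). CHAC1 was higher in BT474R by 0.85 ± 0.20 (adjusted p = 0.00048), SESN2 by 0.42 ± 0.11 (adjusted p = 0.0011) and ATF4 by 0.13 ± 0.05 (adjusted p = 0.040). PPP1R15A was lower (-0.58 ± 0.12, adjusted p = 0.00016), as were TRIB3 (-0.51 ± 0.08, adjusted p = 2.4e-06) and DDIT3 (-0.36 ± 0.10, adjusted p = 0.0026). SESN2 was 0.16 and short of the threshold without BT474R T0 replicate 2, and ATF4 missed it in all 4 omissions (0.10 to 0.11). GDF15, higher by 4.58, moved further than any of the 8.

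The EGF effect at 24 h was larger in BT474R than in BT474 for ATF4, by 0.30 ± 0.08 (adjusted p = 0.013, where 4.01% of genes were called). This was 0.26 without BT474 vehicle replicate 1, 0.21 without BT474R vehicle replicate 1 and 0.27 without BT474R EGF replicate 2, none past the threshold. CHAC1 gave a difference of 0.62 ± 0.29 (adjusted p = 0.32). The 24 h effects against the 12 h effects passed for 0 of the 8 genes in all 4 pairs of ligand and line by edgeR's test (0.517% and 2.5% of genes for EGF and HRG in BT474, 0.185% and 0.0288% in BT474R), with 2, 3, 3 and 0 at an unadjusted p under 0.05.

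Whether the stress response genes followed GDF15 was described by r over the group means of a line. It has no test, since these points share libraries and time. In BT474 the points include the 24 h groups, whose GDF15 values chose the gene, so r there rests partly on that choice. In BT474 r was 0.887 for DDIT3, 0.841 for ATF4, 0.794 for CHAC1, 0.791 for SESN2 and 0.783 for PPP1R15A. It was 0.259 for ATF5, 0.215 for TRIB3 and -0.010 for ASNS. Only 0.854% of 13817 genes were closer to GDF15 than DDIT3 in BT474. In BT474R TRIB3 was closest by Pearson's r, at 0.857, with 0.783% of 13672 genes closer, followed by PPP1R15A at 0.726, CHAC1 at 0.656 and SESN2 at 0.618. ATF4 was at 0.485, ASNS at 0.328, ATF5 at 0.181 and DDIT3 at 0.079 there. The closest stress response gene in BT474 thus had the lowest r of the 8 in BT474R. By Spearman's rho DDIT3 was again closest in BT474 (0.867) and least close in BT474R (-0.152). In BT474R the closest by rho was PPP1R15A (0.915, with 0.139% of genes closer), ahead of TRIB3 (0.842) and CHAC1 (0.745), so the order there depended on the measure. In BT474 rho was 0.733 for ATF4, 0.60 for CHAC1, 0.588 for SESN2 and 0.491 for PPP1R15A.

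**Figure D4:**
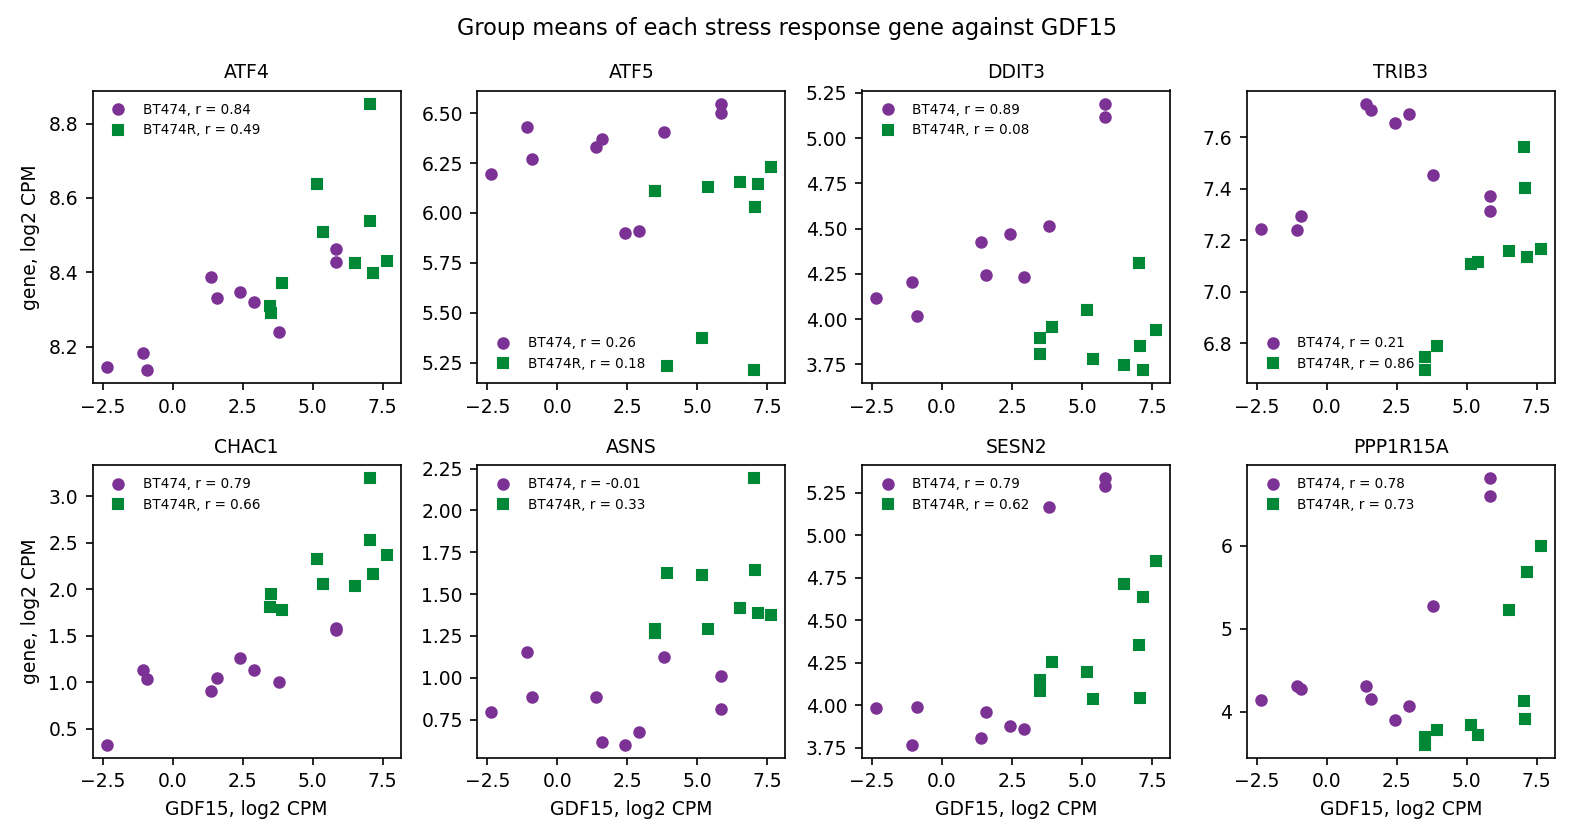
Group means of each stress response gene against GDF15, both in log2 CPM, with 10 groups per line and Pearson's r for each line. DDIT3 in BT474 stands apart in the 1 h ligand groups, and CHAC1 and ATF4 in BT474R in EGF at 24 h.

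In BT474 GDF15 rose by 2.01 and 2.02 at 1 h and by 2.45 and 2.25 at 12 h, where the 8 genes ranged from -0.33 to 1.52 and from -0.26 to 0.42. In BT474R GDF15 rose by 3.54 and 3.15 with EGF at 12 h and 24 h, and the 8 genes ranged from -0.09 to 0.71 and from -0.02 to 1.41. In EGF-BT474R at 24 h 5 of the 8 passed together with GDF15, namely CHAC1, TRIB3, ASNS, ATF4 and DDIT3. These comparisons within a time point share their vehicle libraries.

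The other genes of the pathway were counted from lists chosen with earlier results of these data known. Among 20 cytosolic aminoacyl-tRNA synthetases, which charge tRNAs and include known ATF4 targets, 18 were higher and 1 lower in HRG-BT474 at 24 h (12.5% of all genes higher), and the list's median was 0.28 against -0.02 over all genes. In EGF-BT474 at 24 h 14 were higher and 0 lower (9.71% of all genes higher). VARS1 (0.45 ± 0.08) and YARS1 (0.45 ± 0.05) led with HRG and YARS1 (0.36 ± 0.05) and VARS1 (0.30 ± 0.08) with EGF, while QARS1 fell with HRG (-0.16 ± 0.05). At 12 h 11 were higher with EGF and 13 with HRG (9.04% and 13.3% of all genes), with QARS1 lower in both.

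In EGF-BT474R 13 of the 20 synthetases were higher at 24 h (9.95% of all genes higher) and 7 at 12 h (6.85%), none lower. WARS1, the tryptophan enzyme, which is also a known interferon-gamma target, went from 37.7 CPM under vehicle to 323 with EGF at 24 h, a rise of 3.10 ± 0.12 (adjusted p = 2.6e-13), after 1.00 ± 0.12 at 12 h. GARS1 rose by 0.51 ± 0.05. With HRG in BT474R 6 were higher at 24 h (1.89%) and 3 at 12 h (2.38%), and WARS1 rose by 0.51 ± 0.13 at 24 h. None of the 20 passed in either line with either ligand at 1 h, where 0.169% to 2.77% of all genes were called. A count of 0 of 20 lies near that share.

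Among 20 tested partner factors and stress targets of ATF4 and CHOP, 13 were higher and 1 lower in EGF-BT474R at 24 h (9.95% of all genes higher and 7.37% lower), with a median of 0.42 against -0.01. PMAIP1, the death protein NOXA, rose by 1.40 ± 0.13 and the transcription factor ATF3 by 1.37 ± 0.31, while SQSTM1 fell by 0.19 ± 0.04 (log2 fold change -0.19). In BT474 at 24 h 8 were higher with each ligand, with 1 lower for EGF (9.71% of all genes higher, 6.65% lower) and 4 lower for HRG (12.5% higher, 11.6% lower). ATF3 rose by 0.94 ± 0.27 and 1.32 ± 0.24, VEGFA by 0.69 ± 0.06 and 0.70 ± 0.06, and KLHL24 was lower at -0.63 ± 0.06 and -0.78 ± 0.06. In HRG-BT474R at 24 h 3 were higher (1.89% of all genes). At 1 h ATF3, named after its value was seen, rose by 3.10 ± 0.09 with EGF and 3.56 ± 0.09 with HRG in BT474, and by 2.04 ± 0.24 with EGF in BT474R. For HRG in BT474R at 1 h ATF3 gave 1.16 ± 0.25, short of the threshold (adjusted p = 0.062).

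Of the enzymes of serine, glycine, one-carbon and related amino acid synthesis, 8 of 14 were higher in EGF-BT474R at 24 h (9.95% of all genes higher), led by MTHFD1L (0.62 ± 0.10) and MTHFD2 (0.50 ± 0.05) of the mitochondrial folate cycle. In BT474 at 24 h 7 of 15 were higher with EGF (9.71%), and 8 of 15 were higher and 1 lower with HRG (12.5% higher, 11.6% lower). Of 11 amino acid transporters tested, 6 were higher in HRG-BT474 at 24 h (12.5% of all genes), with the leucine transporter SLC7A5 at 0.87 ± 0.05 and its heavy chain SLC3A2 at 0.51 ± 0.04. In EGF-BT474R at 24 h 4 were higher and 1 lower (9.95% and 7.37% of all genes), with the cystine transporter SLC7A11 at 0.73 ± 0.13 and the arginine transporter SLC7A1 at 0.64 ± 0.06.

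The eIF2 kinases and eIF2 subunits, upstream of ATF4, had 7 of 18 higher and 1 lower in HRG-BT474 at 24 h (12.5% of all genes higher, 11.6% lower), led by EIF2B3 (0.57 ± 0.09) and EIF2S2 (0.43 ± 0.07), with the amino acid sensing kinase EIF2AK4 lower (-0.20 ± 0.05). In EGF-BT474R at 24 h 4 were higher and 1 lower (9.95% and 7.37%). Of 26 ER chaperones and degradation factors, which mark the other arms of the unfolded protein response, 9 were higher and 3 lower in HRG-BT474 at 24 h (34.6% of the list higher, against 12.5% of all genes), and 7 were higher and 5 lower in EGF-BT474R (26.9% higher, against 9.95%). The oxidase ERO1A rose by 0.54 ± 0.07 and 0.84 ± 0.13 in these, and the chaperone CALR was lower in EGF-BT474R (-0.41 ± 0.04). Of 12 genes of the mitochondrial unfolded protein response, 7 were higher with either ligand in BT474 at 24 h (9.71% of all genes with EGF, 12.5% with HRG), led by HSPD1 (0.30 ± 0.04 and 0.43 ± 0.04) and TRAP1, and 4 were higher and 1 lower in EGF-BT474R (9.95% and 7.37%).

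The p53 target list moved with the vehicle at 1 h. In BT474 18 of 22 tested p53 targets were higher and 0 lower against T0, where 3.67% of all genes were higher, and the list's median was 0.62 against 0.01. In BT474R 12 of 22 were higher (1.14% of all genes), with a median of 0.44. The cell cycle inhibitor CDKN1A went from 6.93 to 73.2 CPM in BT474, a rise of 3.40 ± 0.10, and from 10.6 to 42.7 CPM in BT474R, a rise of 2.00 ± 0.26. MDM2, which targets p53 for degradation, rose by 1.62 ± 0.04 and 0.80 ± 0.06, and the kinase PLK3 by 3.00 ± 0.17 and 2.61 ± 0.22. These 3 genes were named after their values were seen. GDF15 and SESN2 rose in the same comparison. Whether the fresh medium, the water or the handling was behind it was not tested.

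With the ligands, the p53 list was split. In EGF-BT474 at 24 h 4 of 22 were higher and 2 lower (9.71% and 6.65% of all genes). In HRG-BT474 5 were higher and 5 lower (12.5% and 11.6%), and in EGF-BT474R 4 and 5 (9.95% and 7.37%). CDKN1A rose by 1.39 ± 0.11, 1.26 ± 0.11 and 1.16 ± 0.24 in these 3, and TP53I3 (-0.47 ± 0.11 and -0.69 ± 0.11) fell in BT474.

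**Figure D5:**
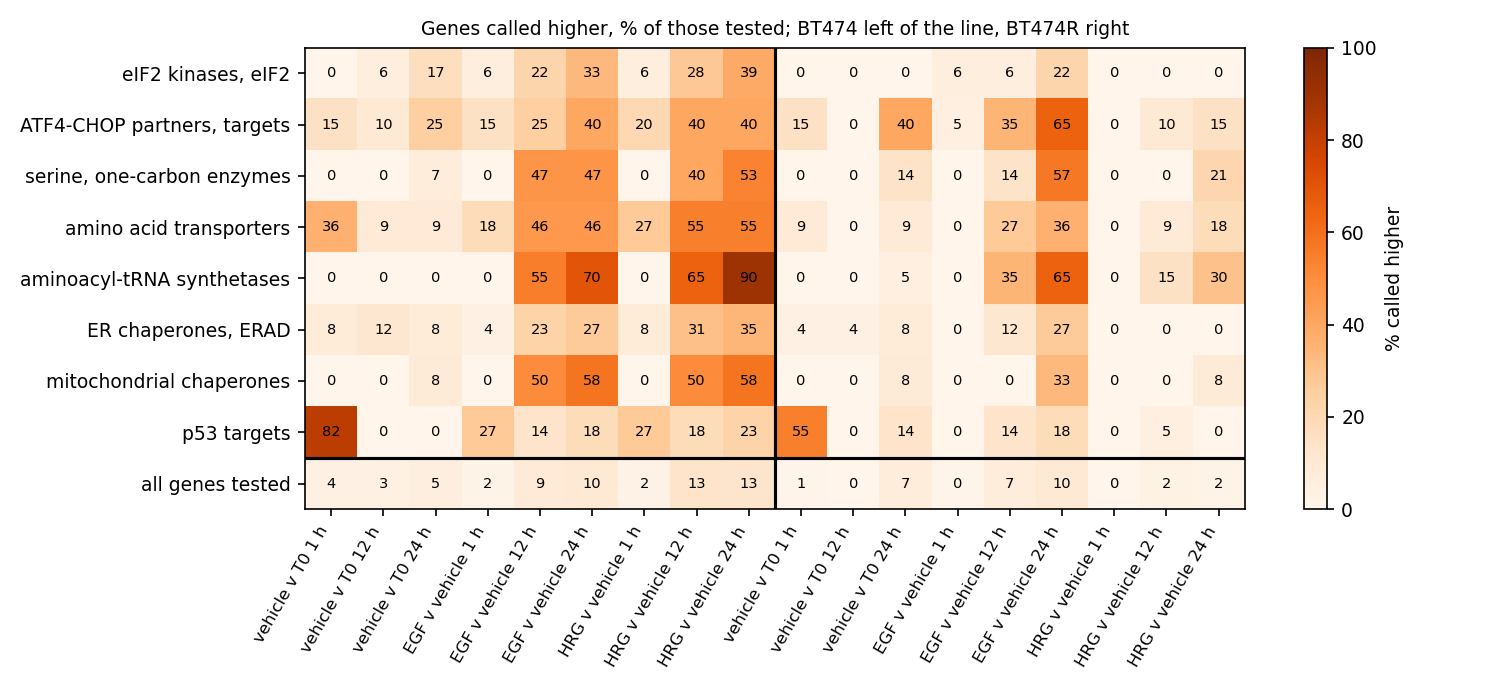
Heat map of the percent of tested genes of each list that were called higher, for vehicle against T0 and each ligand against its vehicle, with BT474 left of the line, BT474R right and all genes tested in the bottom row. The p53 targets stand at 81.8% for vehicle at 1 h in BT474 and the aminoacyl-tRNA synthetases at 90% for HRG-BT474 at 24 h.

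GFRAL, the GDF15 receptor, had 0 counts in the groups of both lines and was not tested, where 3 counts per library is the limit that a count of 0 allows. Its co-receptor RET was present, at 134 CPM under vehicle at 24 h in BT474 and 278 CPM in BT474R. RET rose with both ligands at 12 h and 24 h in both lines, by 0.44 ± 0.04 and 0.45 ± 0.04 with EGF in BT474 and by 0.26 ± 0.06 and 0.24 ± 0.06 with EGF in BT474R. FURIN, a convertase that cleaves precursors of this family, fell in BT474 at 24 h with EGF (-0.77 ± 0.14) and HRG (-1.25 ± 0.15), and its value in EGF-BT474R at 24 h, added after seeing it, was 0.29 ± 0.14 (adjusted p = 0.17). Of the 5 genes of this list that were tested, 1 rose and 1 fell in each 12 h and 24 h comparison in BT474. Of all genes, 9.04% to 13.3% were higher and 6.65% to 12.5% lower in these comparisons.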

How the data were processed

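RNA-seq of BT474 and BT474R cells was used as the table of raw read counts per gene that the authors deposited. Per the labels and the study's methods, reads were trimmed with Trim Galore (version 0.6.6), aligned to GRCh38.p13 and counted with featureCounts. The strand setting and annotation release are not given in the sources used here. Groups came from the sample labels. Members and gene lists were chosen with earlier results of these data known.

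Genes counted at 1 or more in 50% or more of the libraries were tested with edgeR's quasi-likelihood test (version 4.0.16, R 4.3.3) after TMM normalization, in 1 fit of 20 libraries per line and 1 fit of all 40 for differences between lines, with p-values adjusted by Benjamini-Hochberg across every tested gene and called under 0.05. The SE is the log2 fold change divided by the root of F. CPM used the TMM factors of all 40 libraries, and log2 CPM a prior count of 2. The study's methods used DESeq2, which served here as an alternative (version 1.42.0). Fits without 1 library kept the dispersion trend of the full fit. List examples were the 2 called genes with the largest change in each direction with a mean of at least 1 CPM. The 5 genes with the highest r to GDF15 were named too. The test was checked on simulated counts for EGF-BT474 at 12 h, where 87% of 200 changed genes among 25146 were recovered. At a true log2 change of 0.5, the smallest planted, 76.1% were recovered. There were 11 false calls, 5.95% of all calls. Smaller changes, genes with a mean under 1 CPM and BT474R were not checked in this way. Library totals of 16794594 to 33387936 set the counting precision, and the floor of 3 counts covers counting error only. Alternatives were DESeq2, its size factors, other filters, replicate blocks, fits of fewer or more groups and leaving out each library.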

Additional observations from a re-analysis of the deposited data

Results flagged for a closer look

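For the 8 stress response genes, 5 differences between the lines in the effect of a treatment passed, apart from differences in level at T0. Each passed its own test in the fit of all 40 libraries. Of these, 4 came from 48 tests of ligand effects, where 0.138% to 4.07% of all genes were called per comparison. The other came from 8 tests of the vehicle effect at 1 h, where 0.487% of all genes were called. Each is given as BT474R minus BT474 on the log2 scale with its SE and edgeR's adjusted p. The HRG effect on PPP1R15A at 1 h differed by -1.06 ± 0.13 (adjusted p = 2.0e-06). The HRG effect on DDIT3 differed by -0.61 ± 0.13 at 1 h (adjusted p = 0.011) and by -0.53 ± 0.13 at 12 h (adjusted p = 0.015). The EGF effect on ATF4 at 24 h differed by 0.30 ± 0.08 (adjusted p = 0.013). The effect of vehicle at 1 h against T0 on SESN2 differed by -0.87 ± 0.14 (adjusted p = 0.00037), a comparison added after seeing the data. The calls of DDIT3, ATF4 and SESN2 were each lost without some single libraries, as given above. Causes of these differences were not tested.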

How the results depend on the processing

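With 2 libraries per group, 1 library often decides a call. Sign changes under other settings fell on values that had not passed the test, listed last. For GDF15 with EGF at 1 h in BT474R (1.13 in the report, short of the threshold) the call was gained with no filter (1.13), a replicate block (1.14), a block within each time point (1.13), both lines in 1 fit (1.13), only the groups compared (1.12) and no 24 h libraries (1.13). With HRG at 1 h it was gained with no filter (0.68), only the groups compared (0.66) and no 24 h libraries (0.67), and with HRG at 24 h with no filter (1.26), the replicate block (1.26), the block within time points (1.25) and both lines in 1 fit (1.27). The fit without 24 h libraries was chosen after seeing the data. Leaving out 1 library moved GDF15 with HRG in BT474R between 1.51 and 2.34 at 12 h and between 0.41 and 2.15 at 24 h.

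The number of stress response genes called was 2 with DESeq2 for EGF-BT474 at 24 h (4 in the report) and 3 with only the groups compared for EGF-BT474R at 24 h (5). For HRG-BT474R at 1 h (0) the number of stress response genes was 1 with no filter, the block within time points, both lines in 1 fit, only the groups compared or no 24 h libraries. All genes called there numbered 41 in the report's fit, and 151, 59, 68, 121 and 104 in the same order. At 12 h (1) the number of stress response genes was 2 with no filter, the block within time points, both lines in 1 fit or no 24 h libraries. All genes called numbered 1000 in the report's fit, and 1577, 1398, 1606 and 2412 in the same order. At 24 h (1) the number of stress response genes was 2 with no filter, either block or both lines in 1 fit. All genes called numbered 675 in the report's fit, 1147 with no filter and 785 with the replicate block. They numbered 1058 with the block within time points and 1137 with both lines in 1 fit. With only the groups compared, 0 stress response genes were called at 24 h. That setting called 0 of all 25322 genes there, so its count is not a result about the members. Over all members and times, HRG against EGF gave 4 calls, and 7 with no filter, 8 with the block within time points and 2 with only the groups compared. That last setting called 0 of all genes for HRG against EGF in BT474 at 1 h and in BT474R at 24 h. The 24 h against 12 h effects gave 0, and 4, 1 and 2 with no filter, the replicate block and the block within time points. The effects between lines gave 4, and 9, 10 and 9 with no filter, the block within time points and only the groups compared. The number of all genes called changed with these settings too. For EGF at 1 h it was 34, and 130, 60 and 178 in the same order. For HRG at 24 h it was 821, and 977, 1094 and 85. Leaving out 1 library gave 2 to 4 for EGF-BT474 at 24 h, 2 to 5 for HRG-BT474 at 24 h, 0 to 1 for HRG-BT474R at 1 h, 1 to 2 for EGF-BT474R at 12 h, 0 for HRG-BT474R at 12 h, 3 to 5 for EGF-BT474R and 0 to 3 for HRG-BT474R at 24 h, and 0 to 1 for 24 h against 12 h.

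Values near 0 changed sign. The value for GDF15, vehicle at 12 h against T0 in BT474R (0.0033 in the report's fit), was -0.041 with DESeq2, -0.00503 with its size factors, -0.011 with filterByExpr, -0.013 with the replicate block, -0.14 with the block within time points, -0.0030 with both lines in 1 fit and -0.00433 with only the groups compared, and ran from -0.45 to 0.31 without 1 library. At 24 h (0.40) it was -0.11 with the block within time points and -0.47 to 0.98 without 1 library. HRG against EGF at 1 h in BT474 was -0.0049 with both lines in 1 fit and -0.059 to 0.073 without 1 library. In BT474R at 1 h with HRG, DDIT3 ran from -0.14 to 0.11 and SESN2 from -0.15 to 0.028 without 1 library. GDF15 at 24 h minus 12 h in BT474R ran from -0.98 to 0.48 for EGF and -1.44 to 0.29 for HRG, and its HRG effect at 12 h between lines from -0.77 to 0.064. The causes were not tested. Same-numbered samples of a time point correlated with a median of 0.061 in BT474 and 0.0022 in BT474R, so the numbers were not taken to pair the samples. The 24 h pairs were higher, at 0.148 to 0.302 in BT474 and 0.027 to 0.422 in BT474R.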
